A study of Homo sapiens with 58 samples.

Results

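The comparison was between HaCaT-p65, a line derived from the immortalized human keratinocyte line HaCaT by forced expression of RELA/p65, and HaCaT-vector, its empty vector control, both growing in serum. All arrays labelled with these lines, serum, no added ligand and no inhibitor were taken, which gave 3 HaCaT-p65 and 3 HaCaT-vector arrays, 6 of the 58 in the series, all of 1 processing date. The series measured gene expression on Affymetrix probe sets in HaCaT and isogenic variants to obtain signatures of signalling downstream of the EGF receptor. Here the question was what differed between the p65 and the vector line in serum, with no ligand added. Parental HaCaT in serum (3 arrays) was set beside them. For 1 count, serum arrays of the same date from HaCaT-HRAS (mutant HRAS) and HaCaT-EGFR (wild-type EGFR) were added, 3 of each. The other groups used were serum-starved HaCaT-p65 without ligand (3 arrays, harvested at 4 or 8 h), starved HaCaT-vector without ligand (4 arrays, 4 h), and both lines given TNF-α after starvation (5 HaCaT-p65 arrays at 4 or 8 h and 3 HaCaT-vector arrays at 4 h). The promoter driving p65 is not given in the sources used here, nor is it stated whether a line was 1 clone or a pool, so a property of the individual line and an effect of p65 cannot be told apart in any result below. Nothing states that the 3 arrays of a line came from separate cultures, and the study's sample sheet marks all 6 as repeats without saying of what. The p-values therefore measure only spread between arrays within conditions, estimated jointly over the 18 conditions of all 58 arrays.

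p65, encoded by RELA, is the main transactivating subunit of NF-κB, a family of dimeric transcription factors held in the cytoplasm by IκB proteins. When a receptor such as the TNF receptor activates the IκB kinase complex, IκB is degraded and the dimer enters the nucleus, where it binds κB sites and switches on cytokine, chemokine, adhesion and survival genes together with its own inhibitors. In epidermal keratinocytes NF-κB is known for inflammatory signalling and for a role in the balance between growth and differentiation.

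Values were on the log2 scale, so a difference of 1 is a doubling. With 1 probe set for each of 19775 genes, 789 genes (3.99%) were higher and 631 (3.19%) lower in HaCaT-p65 than in HaCaT-vector at an adjusted p under 0.05 (limma with Benjamini-Hochberg adjustment over all genes), 7.18% in either direction. The arrays of both lines did not overlap for 22.7% of all genes and for 1395 of the 1420 that passed. Among the genes passing, 218 rose and 227 fell by over 1, and 45 rose and 64 fell by over 2. Of the 64 large falls, 42 (65.6%) had a HaCaT-p65 mean below 5, in the lowest part of the scale, as had 27 of the 45 large rises (60%) for the HaCaT-vector mean. Arrays of the same line correlated at 0.983 to 0.994 and arrays of different lines at 0.972 to 0.986.

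The labelled gene and cell type were examined first. RELA read 10.13, 10.17 and 10.42 on the HaCaT-p65 arrays and 9.93, 10.02 and 9.97 on the HaCaT-vector arrays. The arrays did not overlap, but the difference of 0.27 (95% interval 0.02 to 0.52) had an adjusted p of 0.256. A second RELA probe set differed by 0.40, with overlapping arrays, and neither passed. Whether these probe sets read the introduced transcript is not given in the sources used here. Of 8 keratinocyte markers measured, 7 did not pass the test and LAMB3 was higher. KRT14, the basal keratin, read 12.92, 12.90 and 12.69 in HaCaT-p65 against 13.03, 13.21 and 13.23 in HaCaT-vector. The summed level of the 12 fibroblast markers was 67.89 to 69.06 per array in HaCaT-p65 and 61.53 to 62.69 in HaCaT-vector, and LUM was the 1 member that passed. COL1A1 differed by -0.11, COL1A2 by -0.07 and DCN by -0.09 without passing, and 4 members had means under 5 in both lines. Of 6 melanocyte markers MITF fell by 0.69, of 8 leukocyte markers FCER1G fell by 0.68, and none of 7 endothelial markers passed. The part of these markers in the results was not tested. In bulk RNA, fewer cells expressing a gene and less RNA per cell cannot be told apart.

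Serum arrays outside the comparison bear on how it is read. Among the 109 genes that differed by over 2, parental HaCaT array 2 lay nearer the HaCaT-p65 mean than the HaCaT-vector mean for 60 (55%), against 21 (19.3%) for array 1 and 25 (22.9%) for array 3. HLTF read 9.01, 4.65 and 8.54 on parental arrays 1, 2 and 3, PROS1 9.12, 3.74 and 8.65, and SIMC1 8.25, 3.36 and 7.83. On each of these genes array 2 sat with HaCaT-p65 while arrays 1 and 3 sat with HaCaT-vector. The parental arrays correlated with each other at 0.976 to 0.983. With array 2 left out of the fit, a choice made after seeing the data, 847 genes were higher and 667 lower, including 788 of the 789 and 630 of the 631. The HaCaT-HRAS arrays lay nearer HaCaT-p65 for 42 (38.5%), 44 (40.4%) and 45 (41.3%) of the 109 genes. For HaCaT-EGFR the numbers were 37 (33.9%), 43 (39.4%) and 38 (34.9%). The HaCaT-HRAS arrays were nearer for 27, 30 and 32 of the 45 large rises and for 15, 14 and 13 of the 64 large falls.

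**Figure D1:**
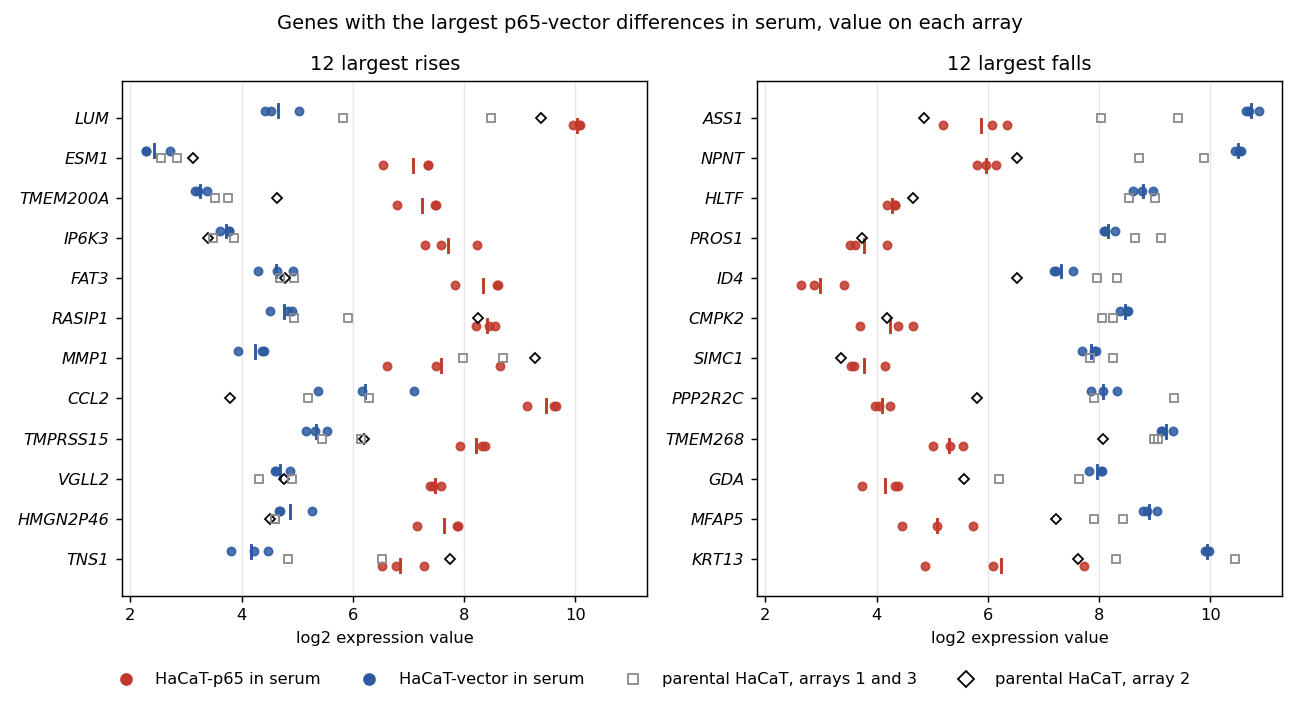
Values on the log2 scale of the 12 genes that rose most (left) and the 12 that fell most (right) in HaCaT-p65 against HaCaT-vector in serum. Dots are single arrays of HaCaT-p65 (red) and HaCaT-vector (blue) with the mean as a bar, squares are parental HaCaT arrays 1 and 3, and diamonds are parental array 2, which lies at 3.36 to 4.65 for HLTF, PROS1, CMPK2 and SIMC1, beside the HaCaT-p65 arrays.

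The genes that rose most did not belong to 1 tissue programme. LUM, the matrix proteoglycan lumican, read 9.96, 10.06 and 10.08 in HaCaT-p65 and 5.03, 4.53 and 4.42 in HaCaT-vector, a 41.4-fold difference (5.37 ± 0.59 SE, adjusted p = 1.36e-08). Parental arrays read 8.48, 9.38 and 5.82, between both lines. A second LUM probe set differed by 0.37 and did not pass.

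ESM1, a secreted proteoglycan known from endothelium, read 6.54, 7.35 and 7.36 against 2.28, 2.72 and 2.29 (4.66 ± 0.47, adjusted p = 1.68e-09). IP6K3, an inositol hexakisphosphate kinase, read 7.30, 7.58 and 8.24 against 3.62, 3.77 and 3.77 (3.98 ± 0.16, adjusted p = 1.88e-21). FAT3, an atypical cadherin, read 7.83, 8.62 and 8.60 against 4.63, 4.30 and 4.93 (3.73 ± 0.33). For these genes every HaCaT-p65 array lay above every HaCaT-vector and every parental array. TMEM200A (4.00), TMPRSS15 (2.87; the intestinal protease enteropeptidase), VGLL2 (2.77; a transcriptional cofactor known from muscle) and HMGN2P46 (2.77) showed the same separation from both controls. HMGN2P46 is annotated as a pseudogene and its probe set can share signal with related transcripts. RASIP1, a Ras-interacting protein, read 8.56, 8.45 and 8.22 against 4.84, 4.52 and 4.91, while the parental arrays ran from 4.94 to 8.26. A second RASIP1 probe set differed by -0.36 and did not pass. TNS1, the focal adhesion protein tensin, rose by 2.69, and parental arrays 2 and 3 (7.75 and 6.52) lay at or above HaCaT-p65 values. TNS1 passed on 2 of its 5 probe sets, with differences from -0.12 to 2.69. MMP1 and CCL2 complete the 12 largest rises and are given with the proteases and chemokines.

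The genes that fell most were spread over metabolism, matrix and transcription. ASS1, the argininosuccinate synthase of arginine synthesis, read 6.35, 6.07 and 5.20 in HaCaT-p65 and 10.69, 10.87 and 10.65 in HaCaT-vector. Parental HaCaT read 9.43, 4.85 and 8.03, so array 2 lay below every HaCaT-p65 array and arrays 1 and 3 lay between both lines. The 29.1-fold fall had an adjusted p of 1.2e-08, and ASL, the next enzyme of the pathway, differed by 0.07 without passing.

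NPNT, the matrix ligand nephronectin, read 5.96, 6.14 and 5.80 against 10.44, 10.52 and 10.55 (-4.53 ± 0.39). ID4, an inhibitor of basic helix-loop-helix transcription factors, read 3.42, 2.88 and 2.65 against 7.54, 7.20 and 7.22 (-4.34 ± 0.32). ID4 passed on 3 of its 5 probe sets, with differences from -4.34 to -0.20. TMEM268 read 5.56, 5.33 and 5.02 against 9.34, 9.14 and 9.11 (-3.89 ± 0.15, adjusted p = 1.33e-21). NPNT, ID4, TMEM268, MFAP5 (-3.82; a microfibril protein), PPP2R2C (-3.99; a phosphatase subunit) and GDA (-3.82; guanine deaminase) were lower on every HaCaT-p65 array than on every HaCaT-vector and every parental array. HLTF (-4.50; a chromatin-remodelling helicase), PROS1 (-4.39; protein S), CMPK2 (-4.22; a mitochondrial nucleotide kinase) and SIMC1 (-4.09) also fell. The other 5 PPP2R2C probe sets differed by at most 0.36 in size, and none of them passed. Nor did a second probe set of NPNT (-0.36) and of GDA (-0.55).

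The next results concern the NF-κB pathway itself, ordered from subunits to targets. None of the 5 subunit genes passed, beside 7.18% of all genes. NFKB1 differed by 0.44 (adjusted p = 0.176), NFKB2 by 0.29, RELB by 0.19 and REL by -0.38. Of 17 inhibitors and upstream kinases measured, 3 rose (17.6%, beside 3.99% of all genes) and none fell. TNFAIP3, the deubiquitinase A20 that limits NF-κB signalling, read 11.52, 11.76 and 11.56 against 10.31, 10.00 and 9.90 (1.54 ± 0.27, adjusted p = 7.1e-05). The HaCaT-p65 arrays lay above every HaCaT-vector array, and a second probe set rose by 1.46. TNIP1, a partner of A20, rose by 0.71 (adjusted p = 0.00845), and NFKBIA, encoding IκBα, rose by 0.68 (adjusted p = 0.038). A second TNIP1 probe set differed by 0.07 and did not pass. With adjustment over all probe sets, neither NFKBIA probe set passed, the second differing by 0.49. The count was 1 without HaCaT-p65 array 3, since TNIP1 lost its call there and NFKBIA lost its call without any 1 of the 6 arrays. The kinase genes CHUK (0.13), IKBKB (-0.03) and IKBKG (-0.01) did not pass.

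Among secreted signals, 4 of 16 chemokines rose (25%) and 1 fell (6.25%), beside 3.99% and 3.19% of all genes. The list's median difference was 0.82, against -0.00402 over all genes. CCL20, which attracts CCR6-bearing lymphocytes and dendritic cells, read 8.08, 8.31 and 8.33 against 5.90, 5.83 and 5.0 (6.34-fold, adjusted p = 1.44e-07). CCL2, the monocyte attractant, read 9.66, 9.61 and 9.14 against 7.11, 6.16 and 5.37 (9.54-fold). Parental HaCaT stayed near HaCaT-vector for CCL20 (mean 5.29 ± 0.143 SD, n = 3) and spread from 3.8 to 6.3 for CCL2. CCL5 rose by 1.85 and CXCL3, a neutrophil attractant, by 1.46. The neutrophil chemokine CXCL8 read 11.67, 11.85 and 11.57 against 10.99, 11.07 and 10.48. Its arrays did not overlap, yet its adjusted p was 0.0977. CXCL1 differed by -0.17. CCL28, a mucosal chemokine, fell by 0.58 at an adjusted p of 0.049, a call lost without any 1 of the 6 arrays.

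Of 17 TNF superfamily ligands and receptors, 5 rose (29.4%) and 1 fell (5.88%), beside 3.99% and 3.19% of all genes. TNF read 7.26, 7.97 and 7.49 against 5.22, 5.33 and 5.02 (5.21-fold, adjusted p = 2.02e-08). LTB, lymphotoxin beta, read 7.93, 8.10 and 7.34 against 5.61, 5.62 and 5.56 (4.55-fold, adjusted p = 5.74e-06). A second LTB probe set differed by 0.15 and did not pass. Both ligands were higher on every HaCaT-p65 array. The receptors rose less: CD40 by 0.68, TNFRSF10B by 0.55 and FAS by 0.49, and TNFRSF21 fell by 0.58. The calls of TNFRSF10B, FAS and TNFRSF21 were lost without HaCaT-p65 array 3, when 3 members rose and none fell. That of FAS was lost without any 1 of the 6 arrays, and that of TNFRSF21 also without HaCaT-vector array 1 or 3.

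Among 20 interleukins, receptors and colony-stimulating factors, 4 rose (20%) and 2 fell (10%), beside 3.99% and 3.19% of all genes. IL1B read 8.62, 8.88 and 9.10 against 7.69, 7.95 and 7.62 (1.11, adjusted p = 0.0005). IL6 rose by 1.46, with HaCaT-p65 array 3 (4.82) below arrays 1 and 2 (6.07 and 6.22), and its call was lost when the 6 arrays were fitted alone. IL1R2, a decoy receptor for IL-1, rose by 1.44 and IL23A by 1.07, and both calls were lost without HaCaT-vector array 3. That of IL1R2 was also lost without HaCaT-vector array 1 or HaCaT-p65 array 1 or 2. IL23A passed on 1 of its 4 probe sets, with differences from -0.09 to 1.07. In the opposite direction, IL36G, an epidermal cytokine of the IL-1 family, read 5.47, 5.77 and 5.07 against 8.97, 9.24 and 9.14 (fell by 3.68, adjusted p = 1.4e-11). Every HaCaT-p65 array was also below the lowest parental array (6.76). IL18 fell by 0.62.

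Survival and adhesion genes followed. BCL2A1, an anti-apoptotic BCL2 relative, read 8.30, 8.82 and 8.54 against 5.93, 6.12 and 5.66 (6.28-fold), and TRAF1 read 7.49, 7.64 and 7.30 against 6.34, 5.62 and 5.98 (2.81-fold). They were the 2 of 10 measured NF-κB survival genes that passed (20% higher, beside 3.99% of all genes). SOD2 (0.12) and BCL2L1 (0.63, adjusted p = 0.0665) did not. Of 18 adhesion and antigen presentation genes, ICAM1 (1.45), VCAM1 (1.16) and TAPBP (0.59) rose. NLRC5, the transactivator of MHC class I genes, fell by 0.81, and HLA-B, HLA-C, B2M, TAP1 and PSMB9 did not pass. In this list 16.7% rose and 5.56% fell, beside 3.99% and 3.19% of all genes. NLRC5 and TAPBP lost their calls without HaCaT-p65 array 3, and TAPBP also without HaCaT-p65 array 2 or HaCaT-vector array 1 or 2. In complement, C3 rose by 1.71 and C5 fell by 1.02, each 9.09% of the list. C5 lost its call when the 6 arrays were fitted alone. C5 also lost it without HaCaT-vector array 1 or 2 or HaCaT-p65 array 2.

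**Figure D2:**
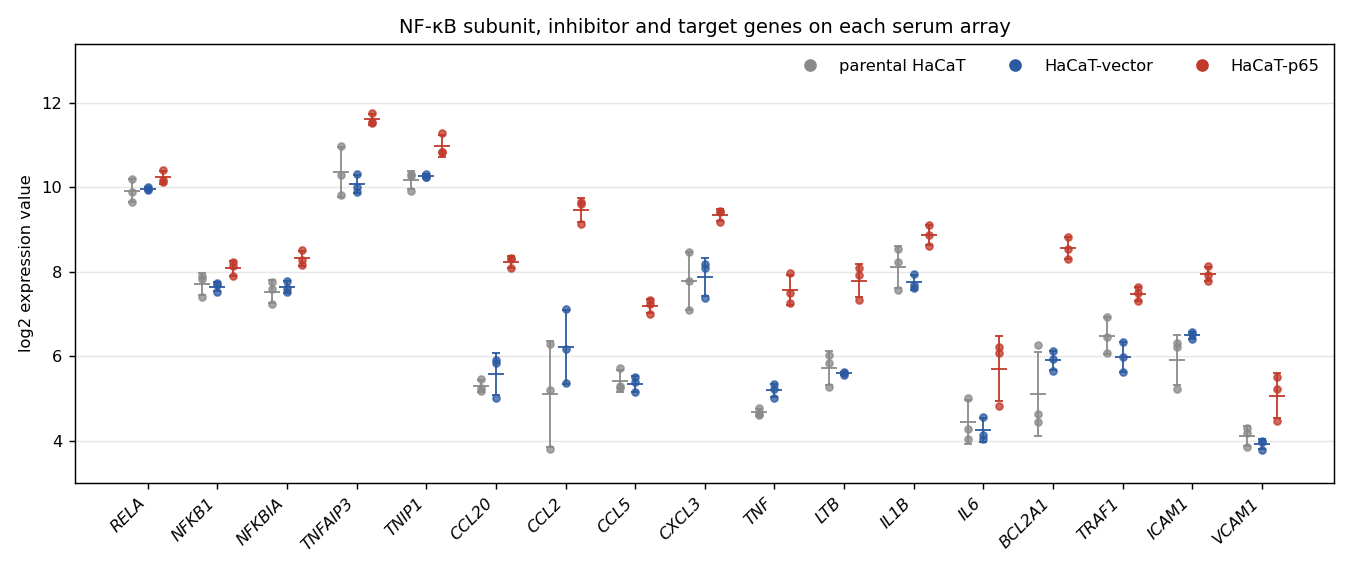
Values on the log2 scale of RELA, NFKB1, inhibitors and target genes of NF-κB on the 9 serum arrays of parental HaCaT (grey), HaCaT-vector (blue) and HaCaT-p65 (red). Dots are arrays and bars the mean with its SD (n = 3), and CCL20, TNF, LTB and BCL2A1 stand over 2 log2 units above HaCaT-vector while RELA differs by 0.27.

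The TNF-α arrays gave a separate readout of genes that respond to an NF-κB-activating ligand in these cells, since they share no array with the serum comparison. TNF-α raised 175 genes (0.885% of all genes) and lowered 4 (0.0202%) in starved HaCaT-vector cells. Of the 789 genes higher in HaCaT-p65 in serum, 53 (6.72%) were among them, and these made up 30.3% of the 175. Of the 631 genes lower in HaCaT-p65, 7 (1.11%) were raised by TNF-α. The number in common was 37 to 50 when 1 of the 6 serum arrays was left out, but 24 without HaCaT-vector TNF-α array 1, when TNF-α raised 57 genes, 42.1% of them higher in serum. The 53 held TNFAIP3, TNIP1, NFKBIA, CCL2, CCL5, CCL20, CXCL3, TNF, LTB, CD40, IL1B, BCL2A1, TRAF1, ICAM1, PLAU and LAMB3. They also held IRF1, SDC4 and INHBA, and IRAK2, PRDM1 and VEGFC, the last 3 chosen after their values were seen. The fall of IL36G and CMPK2 ran opposite to their TNF-α response, which was a rise of 1.85 for IL36G and 2.20 for CMPK2 in HaCaT-vector. RELB and NFKBIE rose with TNF-α in HaCaT-vector (1.09 and 0.87) but differed between the lines in serum by 0.19 and 0.09 without passing. In HaCaT-p65, TNF-α raised 138 genes (0.698%) and lowered 264 (1.34%), 2.03% in either direction, or 241 and 53 with arrays centred on their medians. Of the 138, 39 (28.3%) were among the 789, which was 4.94% of the 789 beside 0.698% of all genes.

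Promoter sequence was examined because these genes moved together in both comparisons. RefSeq windows of GRCh38.p14, running from 250 bases before to 50 bases after the start, were matched to 15384 of the 19775 genes. The κB motif searched for was GGGRNNYYCC, where R is A or G, Y is C or T and N is any base. A match on either strand was present in 12.4% of the matched windows and in 10.8% of all 27305 RefSeq windows. It was present in 14.6% of the windows of genes higher in HaCaT-p65 (96 of 657) and in 10.7% of those of lower genes (55 of 516). Among genes both higher in HaCaT-p65 and raised by TNF-α it was present in 41.3% (19 of 46), and among higher genes that TNF-α did not raise in 12.6% (77 of 611). Genes raised by TNF-α in HaCaT-vector as a whole held it in 31.2% (44 of 141). A match is a description of the letters and not a binding site. The 250 bases before the start are printed for 6 genes: CCL20, TNFAIP3, CXCL3 and LAMB3, which rose in serum and with TNF-α and also in the starved comparison, which shares its 4 HaCaT-vector arrays with the TNF-α one, and which hold a match, and LTB and NFKBIA as a ligand and an inhibitor that rose and hold a match. Each runs 5′ to 3′ on the gene's strand in lower case with κB motif matches in capitals, overlapping matches being merged. CCL20 is at chr2:227813592-227813841 on the plus strand, TNFAIP3 at chr6:137867009-137867258 on the plus strand, CXCL3 at chr4:74038690-74038939 on the minus strand, LAMB3 at chr1:209652426-209652675 on the minus strand, LTB at chr6:31582426-31582675 on the minus strand and NFKBIA at chr14:35404750-35404999 on the minus strand.
CCL20: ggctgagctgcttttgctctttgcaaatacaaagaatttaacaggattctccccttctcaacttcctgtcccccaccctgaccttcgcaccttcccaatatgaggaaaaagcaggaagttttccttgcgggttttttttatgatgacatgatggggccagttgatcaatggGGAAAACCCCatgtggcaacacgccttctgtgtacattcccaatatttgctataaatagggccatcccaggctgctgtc
TNFAIP3: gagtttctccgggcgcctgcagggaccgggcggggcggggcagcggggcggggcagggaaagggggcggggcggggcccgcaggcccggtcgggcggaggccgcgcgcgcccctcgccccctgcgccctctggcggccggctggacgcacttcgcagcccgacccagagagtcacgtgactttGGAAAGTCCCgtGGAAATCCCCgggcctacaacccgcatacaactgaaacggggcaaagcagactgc
CXCL3: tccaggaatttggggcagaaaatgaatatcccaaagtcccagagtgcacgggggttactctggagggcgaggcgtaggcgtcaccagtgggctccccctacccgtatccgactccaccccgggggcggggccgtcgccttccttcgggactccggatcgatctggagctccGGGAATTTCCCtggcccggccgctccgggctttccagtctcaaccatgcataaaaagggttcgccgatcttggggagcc
LAMB3: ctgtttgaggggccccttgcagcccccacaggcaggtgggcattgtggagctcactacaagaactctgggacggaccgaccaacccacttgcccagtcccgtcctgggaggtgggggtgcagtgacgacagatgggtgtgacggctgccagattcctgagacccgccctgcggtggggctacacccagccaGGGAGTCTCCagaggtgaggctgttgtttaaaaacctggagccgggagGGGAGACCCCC
LTB: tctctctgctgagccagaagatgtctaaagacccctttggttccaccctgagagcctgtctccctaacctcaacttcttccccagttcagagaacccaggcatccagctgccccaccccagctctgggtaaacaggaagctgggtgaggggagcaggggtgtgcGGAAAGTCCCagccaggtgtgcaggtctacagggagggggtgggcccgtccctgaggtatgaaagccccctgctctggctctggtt
NFKBIA: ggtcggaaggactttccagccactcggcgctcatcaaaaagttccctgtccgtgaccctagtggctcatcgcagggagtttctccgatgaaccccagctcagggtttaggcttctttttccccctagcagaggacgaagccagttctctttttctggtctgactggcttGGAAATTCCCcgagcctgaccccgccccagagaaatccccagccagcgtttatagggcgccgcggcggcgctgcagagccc
The match nearest the start begins 79 bases before it in CCL20, 55 in TNFAIP3, 78 in CXCL3, 10 in LAMB3, 86 in LTB and 81 in NFKBIA. The 250 bases before the start of TNF, BCL2A1, TRAF1 and ICAM1 held no match to GGGRNNYYCC. Sites of other letters or farther from the start were not searched for, so this does not show that these genes lack κB sites.

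Interferon-stimulated genes had the highest share of rises among the 28 lists: 10 of 23 rose (43.5%) and 1 fell (4.35%), beside 3.99% and 3.19% of all genes. The median difference was 0.80. In starved cells none of the 23 was higher in HaCaT-p65 and 2 were lower, beside 2.34% and 2.96% of all genes. Passing in serum but not in starved cells is not a test of a difference between media. The starved arrays of the lines also shared no processing date. XAF1, a pro-apoptotic interferon target, read 8.19, 8.61 and 8.78 against 6.25, 6.75 and 6.52. MX1, an antiviral GTPase, read 8.29, 8.69 and 9.02 against 7.18, 7.16 and 7.48. Both separated on every array. XAF1 passed on 2 of its 3 probe sets, with differences from -0.10 to 2.02. MX2 (1.72), IFI44 (1.40), IRF9 (1.17), OAS1 (1.05), OAS3 (0.87), IFIH1 (0.80), IRF1 (0.80) and IFI27 (0.80) also rose, while IFIT1, IFIT2 and IFIT3 did not pass. RSAD2, the antiviral enzyme viperin, fell by 1.08 in serum and by 3.35 in starved cells. Its serum call was lost without HaCaT-p65 array 2 and without HaCaT-vector array 3, with differences of -0.95 or below in all 6 fits that left out 1 array. CMPK2, its neighbour and also interferon-inducible, fell by 4.22. The rising count was 3 without HaCaT-p65 array 3, when MX1, MX2 and IFI44 were among the calls lost. MX2 and IFI44 also lost their calls without HaCaT-p65 array 2 or HaCaT-vector array 1 or 2.

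**Figure D3:**
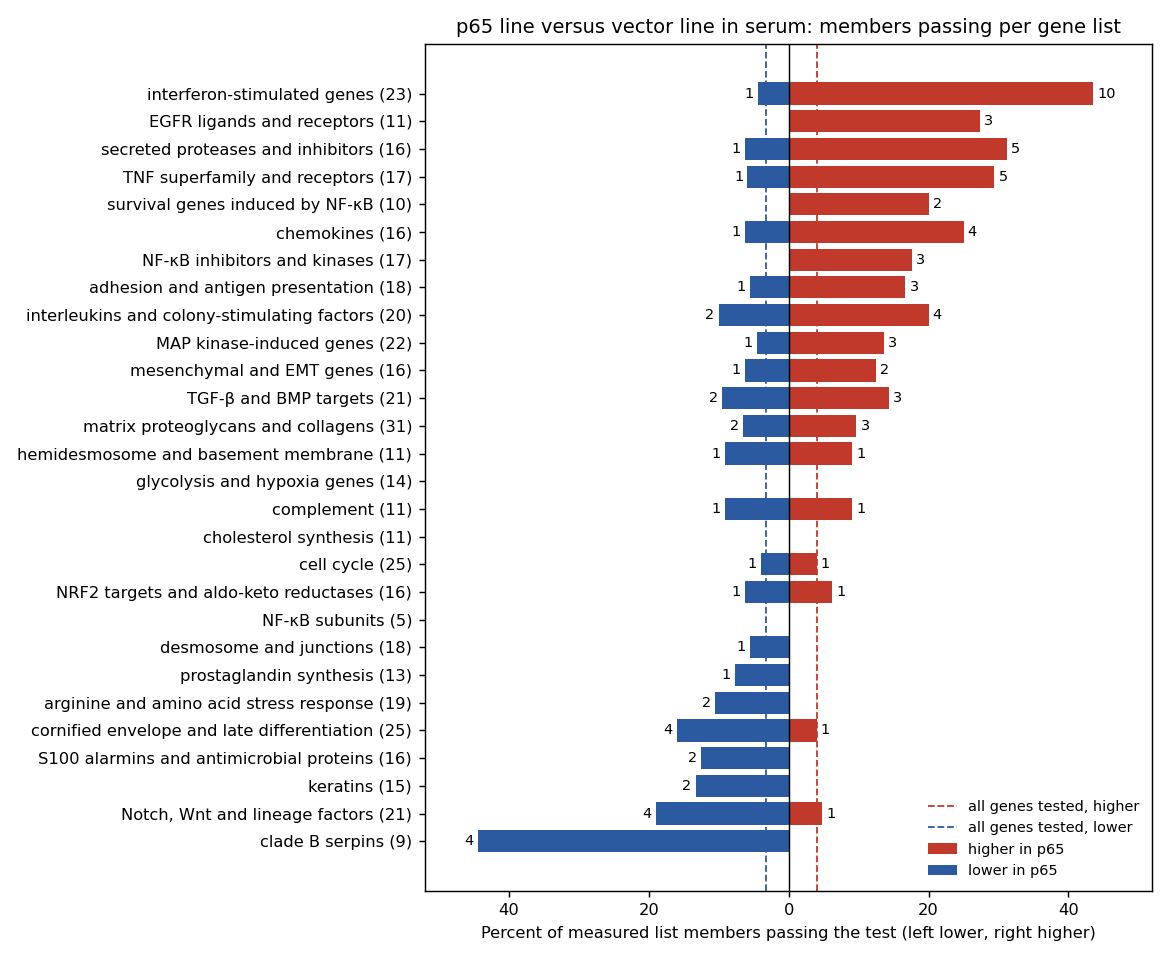
Percent of measured members of each of 28 gene lists that were higher (red, right) or lower (blue, left) in HaCaT-p65 at an adjusted p under 0.05, with the number of members beside each bar and the number measured in brackets. Dashed lines mark the share of all genes, 3.99% higher and 3.19% lower, and interferon-stimulated genes reach 43.5% higher and clade B serpins 44.4% lower, with 4 of 9 members, or 3 when any 1 of the 6 arrays was left out.

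Proteases and matrix genes moved both ways. MMP1, interstitial collagenase, read 6.62, 7.49 and 8.65 against 4.4, 3.93 and 4.37. PLAU, urokinase, read 10.51, 10.82 and 10.86 against 8.61, 8.82 and 8.56. Both lines separated on these genes, but parental MMP1 (7.98 to 9.27) lay at or above most HaCaT-p65 values. MMP10 (1.97), SERPINE2 (1.01) and TIMP1 (1.23) rose as well, and MMP7, matrilysin, read 5.50, 5.04 and 4.65 against 8.21, 7.92 and 7.89 (fell by 2.95, adjusted p = 2.78e-07). These were 5 rises (31.2%) and 1 fall (6.25%) among 16, beside 3.99% and 3.19% of all genes. Of 31 matrix genes, LUM, FN1 (1.76; fibronectin) and SDC4 (0.85) rose, and TNC (-2.03; tenascin C) and SPARC (-0.82) fell. The rises were 9.68% of the matrix list and the falls 6.45%. DCN, BGN, FMOD and the other small leucine-rich proteoglycans of the list did not pass beside LUM. SERPINE2, SDC4 and SPARC lost their calls in some leave-one-out fits. A second SERPINE2 probe set differed by -0.10 and did not pass. TNC passed on 1 of its 3 probe sets, with differences from -2.03 to -0.42.

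Among epidermal differentiation genes, falls outnumbered rises. In the cornified envelope list 4 of 25 fell (16%) and 1 rose (4%), beside 3.19% and 3.99% of all genes, with a median of -0.16. Involucrin (IVL), an envelope precursor, read 6.25, 5.02 and 4.63 against 8.40, 8.25 and 8.48, and all HaCaT-p65 arrays were below the lowest parental array (7.81). SPRR2B read 6.51, 6.86 and 6.35 against 8.49, 8.78 and 8.88. KLK7, a protease of corneocyte shedding, read 8.49, 8.67 and 8.96 against 10.00, 10.60 and 10.29. SPRR3 fell by 2.16, CSTA (cystatin A) rose by 0.70, and FLG, TGM3, DSG1 and the other members did not pass. Of 15 keratins, KRT13 and KRT16 fell (13.3%). KRT13, a keratin of mucosal suprabasal layers, read 7.74, 6.09 and 4.87 against 9.98, 9.90 and 9.95, a wide spread within HaCaT-p65 without overlap. KRT16 fell by 1.23, KRT4 differed by -1.96 without passing (adjusted p = 0.152), and KRT1, KRT5 and KRT10 did not pass. Without HaCaT-p65 array 3 the calls of KRT16, S100A7 and KLF4 were lost, and without HaCaT-vector array 3 that of CSTA. The call of S100A7 was also lost without HaCaT-p65 array 1 or 2 or HaCaT-vector array 1, and that of KLF4 without HaCaT-vector array 1. KLF4, a differentiation factor, fell by 0.79 and GRHL2 by 0.58, and NOTCH3 fell by 2.00 from 5.86, 5.73 and 5.48 to 3.88, 3.71 and 3.49. A second NOTCH3 probe set differed by -0.07 and did not pass. S100P (-2.23) and S100A7 (-1.57) were the 2 of 16 alarmins and antimicrobial proteins that passed (12.5%).

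Growth factor and signalling genes showed scattered calls. TGFA read 10.01, 10.33 and 10.17 against 9.06, 9.06 and 9.39, EREG rose by 0.94 and HBEGF by 0.94, which were 3 of 11 EGF receptor ligands and receptors. That was 27.3% of the list, beside 3.99% of all genes. HBEGF lost its call without any 1 of the 6 arrays, and EGFR (0.24) and ERRFI1 (0.01) did not pass. ETV5 (1.47), SPRED1 (0.69) and ELK3 (0.43) rose and DUSP1 fell by 0.91 among 22 MAP kinase-induced genes, whereas FOS, EGR1, DUSP6 and SPRY4 did not pass. In this list 13.6% rose and 4.55% fell, beside 3.99% and 3.19% of all genes. Of 21 TGF-β and BMP genes, LTBP2 (2.59), INHBA (0.91) and LTBP1 (0.59) rose (14.3%), and ID4 and CCN2 (-1.39) fell (9.52%). ID1, ID2 and ID3 differed by -0.64, -0.68 and -0.74 without passing. CCNE1, cyclin E1, rose by 1.11 and CDKN2B fell by 0.74, and the other 23 of 25 cell cycle genes, MKI67 (-0.22) and PCNA (-0.08) among them, did not pass. Each call was 4% of the list, near the 3.99% higher and 3.19% lower of all genes. A second CCNE1 probe set differed by -0.04 and did not pass. ETV5 lost its call without array 3 of either line and SPRED1 without array 2 of either line. DUSP1, ELK3, INHBA, LTBP1 and CDKN2B lost theirs in 3 or more of the 6 fits that left out 1 array. No member of 11 cholesterol synthesis or 14 glycolysis and hypoxia genes passed. PTGS2, inducible cyclooxygenase, fell by 1.08 and was the 1 member of 13 prostaglandin genes that did (7.69%).

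The starved arrays of the same lines were other arrays, processed on dates that starved HaCaT-p65 and HaCaT-vector did not share, so the separation of line from date rests on the authors' date correction and on the other conditions. There 463 genes were higher (2.34%) and 585 lower (2.96%), 5.3% of all genes in either direction. Of the 789 higher in serum, 193 (24.5%) were among the 463 (41.7% of them), and of the 631 lower in serum, 244 (38.7%) were among the 585 (41.7%). Irrespective of significance, 86.7% of the 1420 serum genes kept their sign. The starved counts were 78 and 142 without HaCaT-vector starved array 4. IP6K3 (4.41), VGLL2 (4.90), TMPRSS15 (3.65), FAT3 (2.78) and RASIP1 (3.05) rose in starved cells too, and ASS1 (-4.01), NPNT (-3.76), ID4 (-4.12) and TMEM268 (-3.39) fell. CCL20 (2.57), CXCL3 (2.07), LAMB3 (1.53), TNFAIP3 (1.35) and PML (1.18) were the members of the 53 that rose in starved cells. The starved and TNF-α comparisons subtract the same 4 starved HaCaT-vector arrays, so passing in both is not separate evidence. BCL2A1 differed in starved cells by -0.57, PLAU by 0.06, LTB by 0.28 and XAF1 by -0.05, none of which passed.

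Whether the line difference changed with serum was tested as an interaction, which passed for 134 genes (0.678%), with a positive value for 97 (0.491%) and a negative one for 37 (0.187%). TMEM200A read 6.79, 7.5 and 7.47 in HaCaT-p65 in serum but 3.99, 3.63 and 3.86 when starved, against 3.20 to 3.56 in starved HaCaT-vector (interaction 3.57, adjusted p = 8.51e-06). ESM1 (3.44), MMP1 (3.52), HMGN2P46 (3.62), CCL5 (2.46) and PLAU (2.01) also differed more in serum. MAF, a bZIP transcription factor, did not differ in serum beyond the spread (-0.06) but fell by 3.75 in starved cells (interaction 3.69). SLC27A6, a fatty acid transporter, read 7.56, 7.31 and 7.00 in HaCaT-vector in serum and 3.42 to 3.91 when starved, while HaCaT-p65 stayed between 3.70 and 4.33 in both (interaction -3.56, adjusted p = 3.48e-08). FLI1, an ETS factor, fell by 3.32 in serum and differed by 0.84 starved (interaction -4.16). Its other probe sets differed in serum by -0.39 to -0.06 without passing. SPANXB1, whose near-identical copies can share its signal, gave -3.42, CCDC3 -2.46 and LINC01224 -2.08. Without HaCaT-vector starved array 4 the interaction passed for 19 and 4 genes. For CCL20 (0.09), TNFAIP3 (0.19), TNF (1.55), LTB (1.91) and BCL2A1 (3.22, adjusted p = 0.0716) it did not pass.

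**Figure D4:**
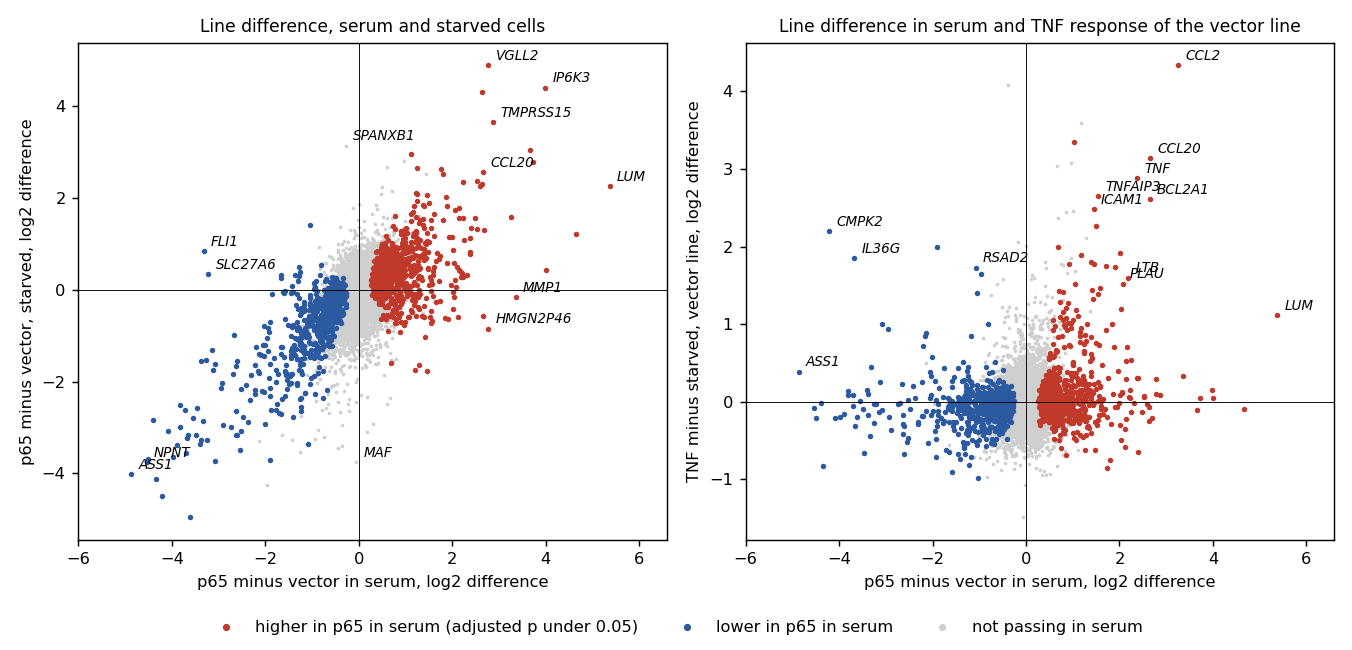
Each dot is a gene, with the log2 difference between HaCaT-p65 and HaCaT-vector in serum on both x axes, against the same line difference in starved cells (left) and the change with TNF-α in HaCaT-vector (right). Red and blue genes were higher or lower in serum at an adjusted p under 0.05. On the left 86.7% of them keep their sign, and on the right 53 of the red and 7 of the blue genes were raised by TNF-α.

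Chromosomal position, which the choice of genes did not use and which was examined after the values were seen, was uneven. Chromosomes and gene order came from RefSeq (GRCh38.p14). Chromosome 15 held 141 of the 789 higher genes (17.9%), which was 23% of its 612 genes beside 3.99% of all, and 5 lower ones. Shares of higher genes were 9.69% on chromosome 20, 8.86% on chromosome 3 and 6.97% on chromosome 7. Chromosome 9 held 84 of the 631 lower genes (13.3%), 10.8% of its 776 genes beside 3.19% of all, and the lower share was 8.25% on chromosome 18, 5.94% on 16 and 5.85% on 5. Without chromosome 15, 648 higher genes remained (3.38%), and without chromosome 9, 547 lower genes (2.88%).

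The shift was shared by neighbours. In windows of 30 neighbouring genes with a mean of at least 6, the median difference was -0.733 from NUDCD2 to HIGD2A on chromosome 5, where all 30 genes were negative and 26 passed. It was 0.633 from CHRNA5 to SEC11A on chromosome 15 (30 of 30 positive, 19 passing) and 0.606 from CRBN to MKRN2 on chromosome 3. From WWOX to ZCCHC14 on chromosome 16 it was -0.569, from BCL2 to PARD6G on chromosome 18 -0.537, from STK4 to ZNFX1 on chromosome 20 0.446, from ABHD17B to ISCA1 on chromosome 9 -0.397 and from FKBP14 to INHBA on chromosome 7 0.357. Of all 9527 overlapping windows, 6.48% had a median of at least 0.3 in size. The 8 windows were those with the largest median in size on their chromosomes, chosen from these same serum arrays. Each single pair of a HaCaT-p65 and a HaCaT-vector array gave the same sign in all 8, which this choice made likely. In starved cells the medians were -0.647 on chromosome 5, 0.49 on 15, 0.649 on 3, -0.457 on 16, 0.352 on 20, -0.379 on 9 and 0.31 on 7, but -0.126 on 18.

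Parental HaCaT divided these windows. Relative to HaCaT-vector, the 3 parental arrays were at 0.359, 0.565 and 0.412 in the chromosome 15 window and at 0.524, 0.39 and 0.581 in that of chromosome 20, on the side of HaCaT-p65. In the windows of chromosomes 3, 7, 9 and 16 they were at -0.186 to 0.179, nearer HaCaT-vector. In the chromosome 5 window parental array 2 was at -0.593 and arrays 1 and 3 at -0.0184 and -0.0744, the same division by array as for HLTF, PROS1 and SIMC1. On chromosome 18 array 2 was at -0.317 and arrays 1 and 3 at 0.109 and -0.0473.

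**Figure D5:**
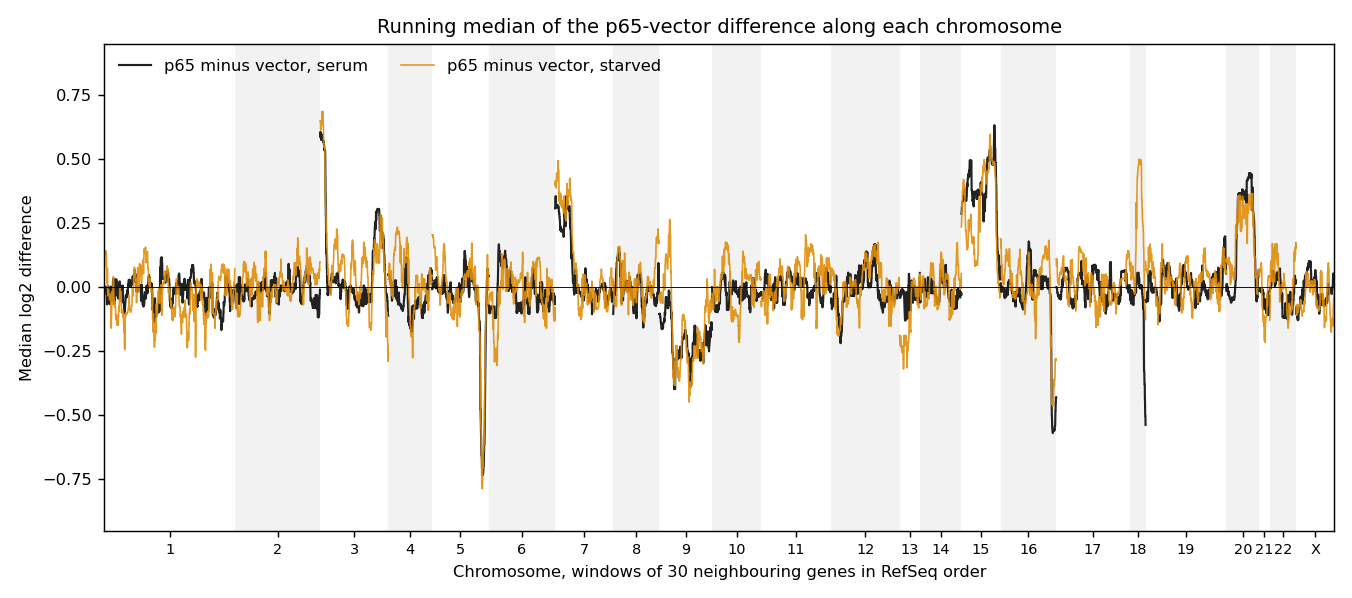
Running median of the log2 difference between HaCaT-p65 and HaCaT-vector over windows of 30 neighbouring genes with a mean of at least 6, ordered along chromosomes 1 to 22 and X, in serum (black) and in starved cells (orange). Stretches on chromosomes 3, 5, 7, 9, 15, 16 and 20 depart from 0 in both media, down to -0.733 on chromosome 5 in serum, and the end of chromosome 18 departs in serum (-0.537) more than in starved cells (-0.126).

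Several genes named above lie in such stretches, and the part of the neighbourhood in their difference was not tested. The 30 nearest genes of DUSP1 (-0.91) had a median of -0.73 and those of SIMC1 (-4.09) -0.58. Of the 12 largest falls, TMEM268 (-3.89), ASS1 (-4.86) and GDA (-3.82) on chromosome 9 had neighbours' medians of -0.31, -0.26 and -0.24. On the same chromosome the medians were -0.32 for TNC (-2.03) and -0.28 for C5 (-1.02). For the remaining falls among the 12 they lay between -0.09 and 0.04. The median was 0.34 for HMGN2P46 (2.77) and 0.22 for IL6 (1.46). For the other rises among the 12 largest it lay between -0.09 and 0.11. The neighbours of BCL2A1 (2.65) and PML (1.16) had a median of 0.49, those of CD40 (0.68) 0.43, those of SDC4 (0.85) 0.42, those of SPRED1 (0.69) 0.35 and those of INHBA (0.91) 0.31. Of 9 clade B serpins 4 fell (44.4%, beside 3.19% of all genes), SERPINB10 (-1.86), SERPINB13 (-1.23), SERPINB7 (-0.76) and SERPINB5 (-0.50). The call of SERPINB5 was lost without any 1 of the 6 arrays, when 3 fell. The neighbours of SERPINB10, SERPINB7 and SERPINB5 on chromosome 18 had medians of -0.33 to -0.35 and those of SERPINB13 -0.23, while SERPINB3 in the same cluster differed by 0.07. TRAF1 rose by 1.49 among neighbours with a median of -0.30. For CCL20, CCL2, CCL5, CXCL3, TNFAIP3 and NFKBIA the neighbours' medians lay between -0.06 and 0.05, and for TNF and LTB they were 0.14.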

How the data were processed

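Expression was measured in HaCaT-p65 and HaCaT-vector cells in serum (3 arrays each). The authors normalized the arrays with fRMA and removed a processing date effect with limma. The deposited values are on the log2 scale, with no genome build given in the sources used here. The labels name a one-cycle labelling kit and the study's sample sheet an amplification kit, so the labelling is uncertain. The same sheet marks the 6 serum arrays as repeats. Of 54675 probe sets, 41097 named 1 gene, 1801 named several and 11777 none. The probe set with the highest mean over the 58 arrays was kept for each of 19775 genes. Other probe sets are described for some genes only, and where none is described they need not have passed. limma 3.58.1 (R 4.3.3) was fitted to all 58 arrays with 18 conditions and 6 processing dates (35 residual degrees of freedom; the largest date coefficient was 1.2e-08, so the date term changed only standard errors and degrees of freedom), with Benjamini-Hochberg adjustment of the p-values across the whole set of genes. A sheet of the study lists 1 HaCaT-p65 TNF-α array as a control, and it was kept as labelled.

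Named genes were RELA, the 12 largest rises and falls, up to 6 passing members of each list, all members of both NF-κB lists, the 5 largest interactions in each direction, and genes passing in serum, starved cells and TNF-α alike. Members and lists were chosen with earlier results of these data known. Of 498 list genes, 463 were measured. On simulated data for this comparison over 19775 genes, 24% of planted differences of 0.5 were recovered, 86% of 1 and 100% of 1.5 and 2, and 5.49% of calls were false. Only 50 genes were planted per size, with normal noise independent between genes. The data held more differences and shifts shared by neighbours, so these rates need not hold for them. The alternatives tried were the arrays fitted, the date term, normalization, probe set choice, a filter on dim genes, the variance model, a replicate block, leaving out arrays and the motif. The precision of the arrays is limited by their number.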

Additional observations from a re-analysis of the deposited data

Results flagged for a closer look

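The difference between the lines itself differed between serum and starved cells for 134 genes by the interaction test with adjusted p under 0.05, and the 5 largest values in each direction are given here, chosen for their size. The serum difference minus the starved difference was 3.44 for ESM1, 3.57 for TMEM200A, 3.52 for MMP1, 3.62 for HMGN2P46 and 3.69 for MAF. It was -4.16 for FLI1, -3.56 for SLC27A6, -3.42 for SPANXB1, -2.46 for CCDC3 and -2.08 for LINC01224. Starved arrays of HaCaT-p65 and HaCaT-vector shared no processing date.

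In 4 cases a single array lay far from the rest of its group, among 30 sets of arrays examined, where chance flags about 1 in 20. MMP1 read 5.95 and CCDC3 6.94 on HaCaT-vector starved array 1. CCDC3 read 8.71 on HaCaT-p65 TNF-α array 4, and TNFAIP3 read 10.37 on HaCaT-p65 TNF-α array 5.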

How the results depend on the processing

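The counts of 789 higher and 631 lower genes stayed within 1.5 times under every alternative run, and no passing gene passed in the opposite direction. They were 575 and 513 with the 6 arrays alone and 572 and 458 with the 15 serum arrays. Without the date term they were 956 and 747, and with arrays centred on their medians 917 and 528. The date term could move no difference here, since all 6 arrays were of 1 processing date. Leaving out 1 array gave 539 to 737 higher and 450 to 627 lower. Same-numbered arrays of both lines deviated together at correlations of 0.58, 0.084 and 0.13, so the numbers were not taken to pair them, and with a replicate block 862 genes were higher and 687 lower, 785 and 626 of them shared. Listed genes that passed numbered 55 higher and 37 lower, 37 to 49 and 27 to 36 with 1 array left out, and 58 and 38 with the replicate block.

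Counts outside serum depended on single settings. Without the date term the starved comparison gave 2546 higher and 2450 lower, the interaction 695 and 545, TNF-α in HaCaT-vector 269 and 49, and TNF-α in HaCaT-p65 297 and 781. Leaving out 1 array gave 78 to 422 and 142 to 553 for the starved comparison, 19 to 101 and 4 to 49 for the interaction, 57 to 156 and 0 to 8 for TNF-α in HaCaT-vector, and 19 to 248 and 4 to 743 for TNF-α in HaCaT-p65. Centring the arrays gave 241 and 53 for TNF-α in HaCaT-p65. With genes of mean at least 5, TNF-α lowered 13 genes in HaCaT-vector and 476 in HaCaT-p65. A stricter κB motif, GGGRNWYYCC with W for A or T, was present in 6.47% of the windows of all genes tested. It was present in 9.44% of those of higher genes, 5.43% of lower genes and 37% of higher genes raised by TNF-α. The causes were not tested.

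Genes that changed sign had not passed in serum: NFKBIB (0.02 with probe sets averaged), NFKBID (0.05 centred, 0.03 with quantile normalization), IKBKB (0.02 centred, 0.04 averaged), IKBKG (0.04 centred), TRAF3 (0.05 centred), OTULIN (0.08 averaged) and MAF (0.02 with quantile normalization). With 1 array left out the ranges were -0.19 to 0.18 for NFKBID, -0.03 to 0.14 for TNIP3, -0.11 to 0.02 for IKBKB, -0.08 to 0.05 for IKBKG, -0.25 to 0.07 for MAP3K14, -0.06 to 0.04 for TRAF3, -0.15 to 0.01 for OTULIN and -0.34 to 0.18 for MAF. Low values near the floor of the arrays limit how far a fall can be measured.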
